A study of Mus musculus with 13 samples.

Results

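The mouse genes of cholesterol synthesis and sterol regulation were examined in liver tumours after knockdown of Yap1, a co-activator of transcription kept in check by the Hippo pathway kinases Mst1 and Mst2. The set was listed by gene name, with earlier results of these data known, and holds 29 of the 23361 genes listed per library. It has 8 enzymes of the mevalonate pathway, 11 enzymes from squalene to cholesterol, 4 genes of sterol sensing, 5 genes of sterol transport and esterification, and Lpcat3, an enzyme of phospholipid remodelling. Sc4mol, the sterol C4 methyl oxidase, is called Msmo1 in RefSeq. Other genes of the pathway are not analysed here.

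All mice carried the genotype Mst1-/-; Mst2Flox/Flox on a mixed C57BL/6 and 129Sv background. Adenoviral Cre was injected to delete the floxed Mst2 alleles in the liver, whereas Mst1 is listed as null in the whole animal, so host cells of the tumour also lack it. Tumours were followed by ultrasound, and mice were then randomized to intravenous lipid nanoparticles with siRNA for 9 days. The siRNA targeted luciferase in 8 control libraries (siLuc) and Yap in 5 libraries (siYap). All libraries were made from tumour RNA with ribosomal RNA removed, and the age of the animals is not given in the sources used here. Nothing in the labels says which libraries came from separate animals. Some libraries share a number in their deposited code, which the labels do not explain: siYap replicates 1 and 2 share 90, siYap replicates 3 and 4 share 99, and the 8 siLuc libraries carry 5 numbers. The p-values therefore measure the spread between these libraries, which may in part be spread within an animal.

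Cholesterol is built from acetyl units through mevalonate, the isoprenoid farnesyl diphosphate, squalene and lanosterol, and the liver is a main site of its synthesis. SREBP2, the product of Srebf2, is a membrane-bound transcription factor held in the endoplasmic reticulum by Scap and the Insig proteins while sterols are plentiful. When sterols are scarce, Scap carries SREBP2 to the Golgi, where 2 proteases free its DNA-binding part, which turns on the enzymes of the pathway together with NF-Y and Sp1.

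Each library held between 23637021 and 37043914 assigned fragments. Yap1 (chr9:7931999-8004638, mm10) was at 9.999 ± 1.37 FPKM (SD, n = 8) in siLuc and 3.29 ± 0.845 (SD, n = 5) in siYap, with no overlap between the groups and a log2 fold change of -1.58 ± 0.17 (SE, adjusted p = 2.36e-05). FPKM is the number of fragments per kilobase of transcript at a common sequencing depth, so it allows levels of different genes to be compared. The hepatocyte markers summed to 20798 to 30419 FPKM in siLuc and 15247 to 25038 in siYap, and 2 of 10 fell. Markers of other cell types passed in part. Of the macrophage markers 7 of 11 fell, and of the cholangiocyte markers 3 of 8. Of the neutrophil markers 5 of 6 rose, as did 4 of 9 endothelial and 3 of 9 fibroblast markers. Of 8 T and NK cell markers, 1 rose and 1 fell. Of all genes tested, 16.0% rose and 14.8% fell. The lists were mixed, with a fold change above 0 for 2 of 11 macrophage and 2 of 8 cholangiocyte markers. The same held for 7 of 9 endothelial, 8 of 9 fibroblast and 6 of 6 neutrophil markers. The summed cholangiocyte markers, at 1943 to 5056 FPKM in siLuc and 162 to 1142 in siYap, did not overlap. siYap replicate 1 stood apart, with the highest sums of fibroblast markers (737 FPKM, against 62.1 to 370.1 in siLuc) and neutrophil markers (1170.0 FPKM, with 1006 in siYap replicate 5, against 37.9 to 193 in siLuc). The ribosomal precursor Rn45s was at 1160.2 CPM (share of fragments at a common depth) in siYap replicate 1 and 1882 in siYap replicate 3, against 479 to 812 in the other 11 libraries. The part of cell makeup and RNA quality in the results was not tested, and fewer cells of a type cannot be told apart from less RNA per cell in these bulk tumours.

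After Yap1 knockdown, 16 of the 29 genes rose, none fell and 13 did not pass the test (edgeR's quasi-likelihood test on fragment counts, Benjamini-Hochberg adjusted p under 0.05 over 15132 genes). Of all genes tested, 30.8% passed: 16.0% rose and 14.8% fell. The median log2 fold change was 0.81 over the 29 genes and -0.0026 over all genes tested, and 25 of the 29 had a fold change above 0. By role, 7 of 8 mevalonate enzymes rose (median log2 fold change 1.19), 6 of 11 later enzymes (0.81), 2 of 4 genes of sterol sensing (0.50) and 1 of 5 genes of transport and esterification (0.16). Separation between libraries was less complete than these counts: every siYap library lay above every siLuc library for 2 of 29 genes, Dhcr7 and Srebf2, against 5.57% of all genes tested, and none lay wholly below (5.66% of all genes tested). siYap replicates 2 to 5 lay above every siLuc library for 8 of 29 genes, against 7.97% of all genes tested. siYap replicate 2 carried much of the rise: without it, 11 of the 16 calls were kept, while 15.1% of all genes tested rose. Without siYap replicate 1, all 16 calls were kept, and 13.7% of all genes tested rose.

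**Figure D1:**
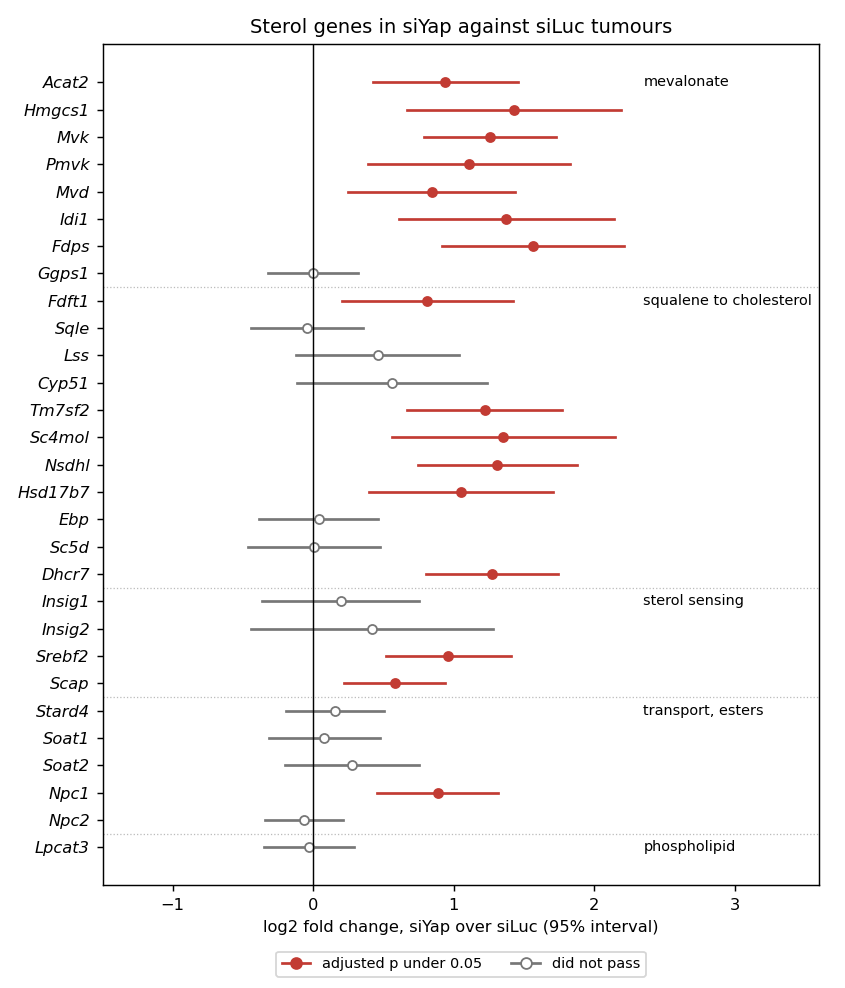
Log2 fold change of siYap over siLuc for the 29 genes, grouped by role, with the 95% interval of the edgeR fit; filled points passed an adjusted p of 0.05. The 16 genes that passed lie to the right of 0, led by Fdps at 1.57, and the points of Sqle, Ggps1, Ebp and Sc5d lie near 0.

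The upstream sequences of Mvk and Hmgcs1 are shown because both genes rose and have at least 3 NF-Y boxes in an upstream stretch free of annotated genes and exons. The stretches are from RefSeq's promoter windows on GRCm38.p6 (the mm10 build), read 5′ to 3′ on the plus strand, and end at the base before the gene's start. Mvk spans chr5:114444074-114444263 and Hmgcs1 spans chr13:119690101-119690350. Capitals mark the NF-Y box CCAAT on either strand (ATTGG is its reverse complement) and, in Hmgcs1, the sterol regulatory element TCACNCCAC.
Mvk: Mvk
Hmgcs1: Hmgcs1
The Mvk stretch holds 5 NF-Y boxes within 190 bases. The Hmgcs1 stretch holds 3 within 250 bases, with the sterol regulatory element between them. The promoter window of Mvk also overlaps another gene, Mmab, and which gene its boxes serve was not tested. RefSeq windows from 250 bases before to 50 after the start were at hand for 23 of the 29 genes. They made 29 windows, since some genes have several starts. Fdps, Fdft1, Sqle, Stard4, Soat2 and Npc1 had no window and were not searched. CCAAT was found on either strand in 21 of the 23 genes (91.3%), against 41.06% of 27025 genes. The genes without it were Acat2 and Scap, both of which rose. The box was in 11 of 13 genes that rose and in 10 of 10 that did not pass, so its presence did not separate these. TCACNCCAC was found in Hmgcs1 alone of the 23, against 1.436% of all genes. GGAATG, the core letters bound by TEAD factors, which recruit Yap1 to DNA, was found in Npc2 alone of the 23, against 16.58% of all genes. The sterol regulatory element of Hmgcs1 shares no base with its NF-Y boxes, and a match describes the letters of these windows only.

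**Figure D2:**
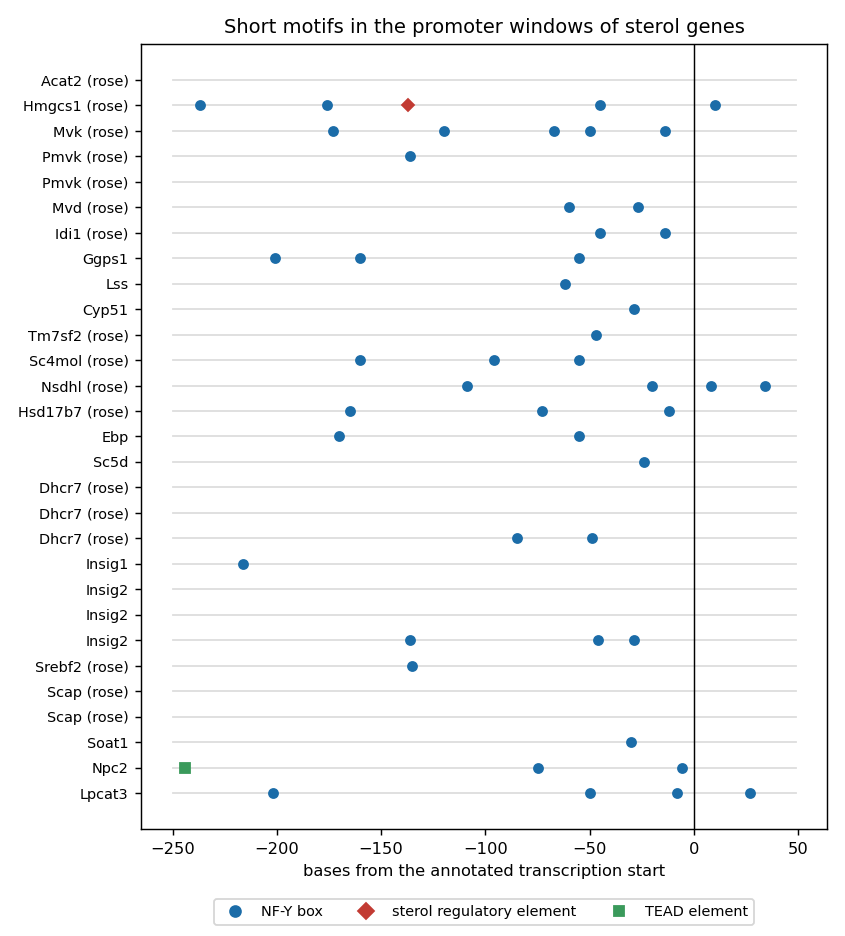
Positions of the NF-Y box, the sterol regulatory element and the TEAD element, on either strand, in the RefSeq promoter windows of 23 genes, in bases from the annotated start; each line is a window, and genes with several starts have several lines. NF-Y boxes are seen for 21 of 23 genes, and the other motifs for 1 gene each.

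Hmgcs1 makes HMG-CoA from acetoacetyl-CoA. Its level was 132 FPKM in siYap replicate 1, 658 in replicate 2, 215.7 in replicate 3, 260.5 in replicate 4 and 215.3 in replicate 5, against a lowest of 34.8, a median of 118 and a highest of 152 in siLuc. siYap replicates 2 to 5 lay above every siLuc library and replicate 1 lay among them. Its log2 fold change of 1.43 ± 0.36 (SE) had a 95% interval of 0.67 to 2.19 and an adjusted p of 0.00817; without siYap replicate 2 it was 0.90 (adjusted p = 0.0296).

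Fdps, which makes farnesyl diphosphate, had the largest fold change of the 29 genes. It was at 143, 877, 411, 552 and 362 FPKM in siYap replicates 1 to 5, against a lowest of 87.2, a median of 148 and a highest of 255 in siLuc. siYap replicate 1 lay below the siLuc median, whereas the other siYap libraries lay above every siLuc library. Its log2 fold change of 1.57 ± 0.30 (SE) had an interval of 0.92 to 2.21 and an adjusted p of 0.00166. Idi1, which isomerizes the 5-carbon building block of isoprenoids, was at 118, 608, 201, 305.5 and 191 FPKM in siYap, against a lowest of 65.6, a median of 92.9 and a highest of 187 in siLuc. The order of the siYap libraries was that of Fdps, with replicate 1 inside the siLuc range. The log2 fold change of Idi1 was 1.38 ± 0.36 (SE, adjusted p = 0.0104), and 0.88 without siYap replicate 2 (adjusted p = 0.0397).

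Mevalonate itself is phosphorylated by Mvk and then Pmvk, and the product is decarboxylated by Mvd. Mvk was at 8.90, 37.6, 18.7, 17.9 and 16.7 FPKM in siYap, against a lowest of 6.03, a median of 8.56 and a highest of 9.95 in siLuc. All siYap libraries but replicate 1 were above the siLuc range, and the log2 fold change was 1.26 ± 0.22 (SE, adjusted p = 0.000769), with the call kept without each library in turn. Pmvk rose by 1.11 ± 0.34 on the log2 scale (SE, adjusted p = 0.0225), and siYap replicate 1 was its lowest library of all, at 24.6 FPKM against 25.3 to 87.7 in siLuc. The call for Pmvk was lost without siYap replicate 2 (adjusted p = 0.0679) or replicate 4 (0.0626). Mvd, the least abundant of these enzymes at 5.23 ± 1.39 FPKM (SD, n = 8) in siLuc, rose by 0.84 ± 0.28 (SE, adjusted p = 0.0331). That call was lost without any of 5 libraries, with an adjusted p of 0.0501 without siLuc replicate 8, 0.0576 without siLuc replicate 6, and 0.137, 0.0864 and 0.0542 without siYap replicates 2, 3 and 4. Acat2, which joins acetyl-CoA units, rose by 0.94 ± 0.24 (SE, adjusted p = 0.00948), and by 0.57 without siYap replicate 2 (adjusted p = 0.0305).

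Ggps1 was the mevalonate enzyme that did not pass. It lengthens farnesyl diphosphate to geranylgeranyl diphosphate, a lipid anchor of prenylated proteins, and so leads away from cholesterol. It was at 7.70, 5.89, 5.29, 8.96 and 6.95 FPKM in siYap, against a lowest of 5.63, a median of 6.51 and a highest of 8.95 in siLuc. The groups overlapped, and the log2 fold change of -0.0035 ± 0.15 (SE) had a 95% interval of -0.32 to 0.32.

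**Figure D3:**
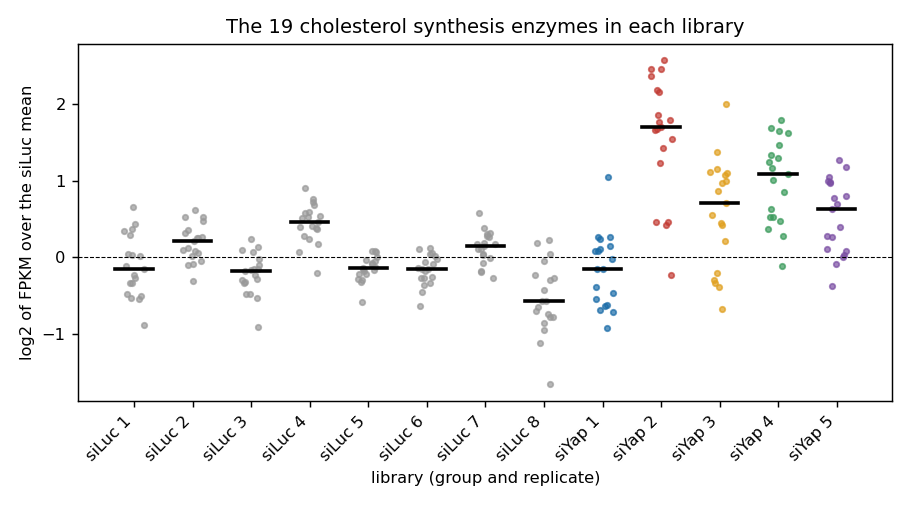
FPKM of the 19 enzymes in each library, divided by the siLuc mean of that enzyme, on a log2 axis; each point is an enzyme and the bar is the median. The median was 1.70 in siYap replicate 2, 1.09 in replicate 4 and -0.15 in replicate 1, inside the range of the siLuc libraries (-0.58 to 0.46).

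Squalene is made by Fdft1, the first enzyme committed to sterols. It was at 37.1, 191, 87.9, 134 and 78.8 FPKM in siYap, against a lowest of 31.1, a median of 58.9 and a highest of 89.9 in siLuc. Only siYap replicates 2 and 4 lay above every siLuc library. Fdft1 passed narrowly, with a log2 fold change of 0.81 ± 0.28 (SE, adjusted p = 0.0417). The call was lost whenever 1 of 9 libraries was left out (siLuc replicates 1, 2, 3, 5, 6 or 8, or siYap replicates 2, 3 or 4), with adjusted p-values from 0.0543 to 0.159, the highest without siYap replicate 2. Fdft1 shares 774 bases with Ctsb in the RefSeq annotation, and Ctsb had a log2 fold change of 0.05 (adjusted p = 0.855).

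Sqle, which oxidizes squalene and is a rate-limiting step of the later pathway, did not pass. It was at 35.2, 65.1, 39.7, 44.9 and 49.5 FPKM in siYap, against a lowest of 31.0, a median of 47.7 and a highest of 61.7 in siLuc. Its log2 fold change of -0.05 ± 0.19 (SE) had a 95% interval of -0.44 to 0.35, which lies below the estimates for Hmgcs1, Idi1 and Fdps. Within each library, the log2 ratio of Sqle to Hmgcs1 FPKM was -1.56 to -0.17 in siLuc and -3.34 to -1.91 in siYap, so the groups did not overlap. This pair was chosen after its values were seen, and the ratio is a description; the difference in response between the genes was not tested. Lss and Cyp51, which close the sterol ring and remove the first methyl group of lanosterol, had log2 fold changes of 0.46 ± 0.27 (SE, adjusted p = 0.213) and 0.56 ± 0.32 (SE, adjusted p = 0.189). Cyp51 was at 209 FPKM in siYap replicate 2 and at 43.1 to 103 in the other siYap libraries, against 49.2 to 89.4 in siLuc, and its log2 fold change was 0.05 without that library.

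The enzymes that trim lanosterol further rose. Sc4mol, which oxidizes the methyl groups at C4, was at 162, 699.5, 180, 436 and 230 FPKM in siYap, against a lowest of 61.7, a median of 135 and a highest of 202 in siLuc. siYap replicates 2, 4 and 5 lay above every siLuc library and replicates 1 and 3 did not. The log2 fold change was 1.35 ± 0.37 (SE, adjusted p = 0.0139), and 0.89 without siYap replicate 2, where the call was lost (adjusted p = 0.0556). Nsdhl and Hsd17b7 complete the removal of those methyl groups. Nsdhl rose from 9.21 ± 2.62 FPKM (SD, n = 8) to 22.7 ± 11.6 (SD, n = 5), a log2 fold change of 1.31 ± 0.27 (SE, adjusted p = 0.0023), and its call was kept without each library in turn. Hsd17b7 rose by 1.05 ± 0.31 (SE, adjusted p = 0.0181), and its call was lost without siYap replicate 2 (adjusted p = 0.0571). Tm7sf2, a sterol C14 reductase, rose from 17.7 ± 5.57 FPKM (SD, n = 8) to 40.6 ± 17.8 (SD, n = 5), a log2 fold change of 1.22 ± 0.26 (SE, adjusted p = 0.00297).

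Among the last steps, Dhcr7 rose and the enzymes before it did not pass. Dhcr7 (chr7:143823167-143848410) reduces 7-dehydrocholesterol to cholesterol. It was at 7.88, 10.3, 15.3, 5.48 and 5.93 FPKM in siYap, against a lowest of 2.56, a median of 3.84 and a highest of 5.01 in siLuc. All 5 siYap libraries, including replicate 1, lay above every siLuc library, and replicate 3 rather than replicate 2 was the highest. Its log2 fold change of 1.27 ± 0.22 (SE) had an interval of 0.80 to 1.74 and an adjusted p of 0.000745, the smallest of the 29 genes. Ebp and Sc5d, the isomerase and desaturase that precede it, were among the more abundant enzymes at 95.7 ± 19.2 and 173 ± 34.4 FPKM (SD, n = 8) in siLuc. Their log2 fold changes were 0.04 (95% interval -0.38 to 0.46) and 0.01 (-0.46 to 0.48), and the groups overlapped for both. Within each library, the log2 ratio of Ebp to Nsdhl FPKM was 2.98 to 4.34 in siLuc and 1.60 to 2.64 in siYap. This pair was also chosen after its values were seen, and other pairs overlapped between the groups. Sqle to Fdft1 was -0.61 to 0.31 in siLuc and -1.58 to -0.07 in siYap. Ggps1 to Fdps was -5.40 to -3.64 in siLuc and -7.22 to -4.22 in siYap. The share of all gene pairs without overlap was not computed.

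**Figure D4:**
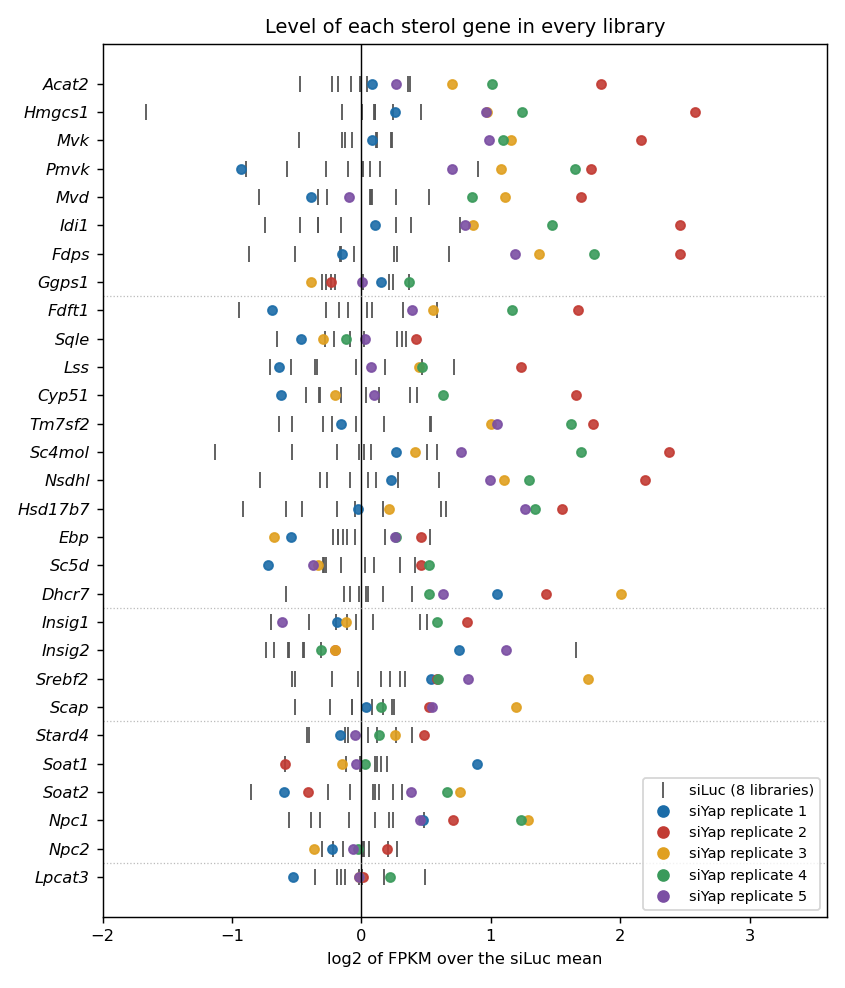
FPKM of each of the 29 genes in each of the 13 libraries, as the log2 ratio to that gene's siLuc mean. Of the 13 enzymes that rose, siYap replicate 2 was the highest library for 12, and siYap replicate 1 was at or below the highest siLuc library for 12.

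The enzymes varied in level between libraries of the same treatment, with the same libraries high or low for most of them. Of the 19 enzymes, siYap replicate 2 was the highest of all 13 libraries for 15, against 4.23% of all genes tested. siYap replicate 1 was the lowest siYap library for 16 of 19, against 28% of all genes tested. These libraries share the number 90, and the FPKM of replicate 2 was above that of replicate 1 by a median of 3.88 times over the enzymes, from 0.766 to 6.51 times, and by more than 2 times for 16 of 19. siYap replicates 3 and 4, which share the number 99, differed less: replicate 4 was above replicate 3 by a median of 1.49 times. The controls varied in the same way over a smaller range. siLuc replicate 8 was the lowest of all 13 libraries for 10 of 19 enzymes (12.1% of all genes tested), and siLuc replicate 4 was the highest siLuc library for 13 of 19 (10.5% of all genes tested). Hmgcs1 had the widest range of the 19 enzymes among controls. It was at 34.8 FPKM in siLuc replicate 8 and at 99.1 to 152 in the other siLuc libraries. Its highest control was 4.36 times its lowest, against 1.59 (Ggps1) to 3.47 times (Pmvk) for the other enzymes. siYap replicate 1, with enzyme levels like those of controls, is also the library with the highest sums of fibroblast and neutrophil markers, and siLuc replicate 8 is the only library with Y-linked transcripts of a male; the part of either in the enzyme levels was not tested.

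The deposited codes of the libraries begin with the digits 6, 7 or 8, whose meaning is not given. Within a digit, the mean log2 level in siYap was above that in siLuc for 23 of the 29 genes for digit 6 (2 siYap and 2 siLuc libraries), against 49.5% of all genes tested, and for 25 of 29 for digit 7 (2 and 5 libraries), against 48.8%. The median log2 differences of the 29 genes were 0.47 and 0.68. Digit 8 has 1 library of each group. For digit 6, siYap replicate 1 lay below both siLuc libraries for 4 of the 16 genes that rose (Pmvk, Mvd, Fdft1 and Hsd17b7). The share of all genes tested with this order was not computed, so the count is a description only. With the digit as a term in the fit, the 16 calls were kept, and 17.4% of all genes tested rose. With the counts summed over libraries that share a number, which leaves 5 siLuc and 3 siYap values, 14 of 16 calls were kept and Mvd (adjusted p = 0.0778) and Fdft1 (adjusted p = 0.0724) were lost, while 12.2% of all genes tested rose. Leaving out siYap replicates 1 and 2 together, 14 of 16 calls were kept, and 12.7% of all genes tested rose.

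Srebf2 (chr15:82147269-82205379), the gene of the transcription factor, was at 6.02, 6.21, 13.9, 6.25 and 7.34 FPKM in siYap, against a lowest of 2.85, a median of 4.34 and a highest of 5.23 in siLuc. All siYap libraries were above all siLuc libraries, and replicate 3 was the highest. The fold change of 0.96 ± 0.21 on the log2 scale (SE) had an interval of 0.51 to 1.41 and an adjusted p of 0.00353, and it was 0.69 without siYap replicate 3 (adjusted p = 0.0114). The microRNA Mir33 lies inside Srebf2 and was not measured separately. Scap, the escort of SREBP2, was at 4.36, 6.10, 9.73, 4.72 and 6.19 FPKM in siYap, against a lowest of 2.97, a median of 4.27 and a highest of 5.06 in siLuc. Only siYap replicates 2, 3 and 5 lay above the siLuc range. Scap rose by 0.58 ± 0.17 (SE, adjusted p = 0.0173), and the call was lost without siYap replicate 3 (adjusted p = 0.0653), the library with the highest Rn45s. The order of the siYap libraries for Srebf2, Scap and Dhcr7, with replicate 3 first, was not that of Hmgcs1 and Fdps, with replicate 2 first. Replicate 3 was the highest of all 13 libraries for 18.7% of all genes tested, and replicate 2 for 4.23%. The library with the highest Rn45s was thus the highest for Srebf2 and Dhcr7 as well, and the part of RNA quality was not tested.

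The Insig genes, which encode the retention proteins of Scap, did not pass. Insig1 (chr5:28071412-28078662), itself a target of SREBP2, was at 195, 391, 205, 333 and 146 FPKM in siYap, against a lowest of 137, a median of 211 and a highest of 316 in siLuc. The groups overlapped, and the log2 fold change of 0.19 ± 0.26 (SE) had an interval of -0.37 to 0.76 and an adjusted p of 0.599. Insig1 shares 7251 bases with the non-coding RNA gene Gm35223 in the RefSeq annotation. Within each library, the log2 ratio of Insig1 to Hmgcs1 FPKM was 0.51 to 1.98 in siLuc and -0.75 to 0.56 in siYap, with an overlap through siYap replicate 1 alone. This pair, too, was chosen after its values were seen. Hmgcs1 had passed and Insig1 had not, so a shift of their ratio follows from that choice. The difference in response between these genes was not tested. Insig2 (chr1:121304353-121332662) was at 54.7, 28.2, 28.2, 26.2 and 70.2 FPKM in siYap, against a lowest of 19.4, a median of 22.9 and a highest of 102 in siLuc. The highest siLuc value was that of replicate 1, and the other siLuc libraries reached 26.0. The log2 fold change of Insig2 was 0.42 ± 0.40 (SE, adjusted p = 0.45), and 0.88 without siLuc replicate 1, where it passed (adjusted p = 0.0107).

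**Figure D5:**
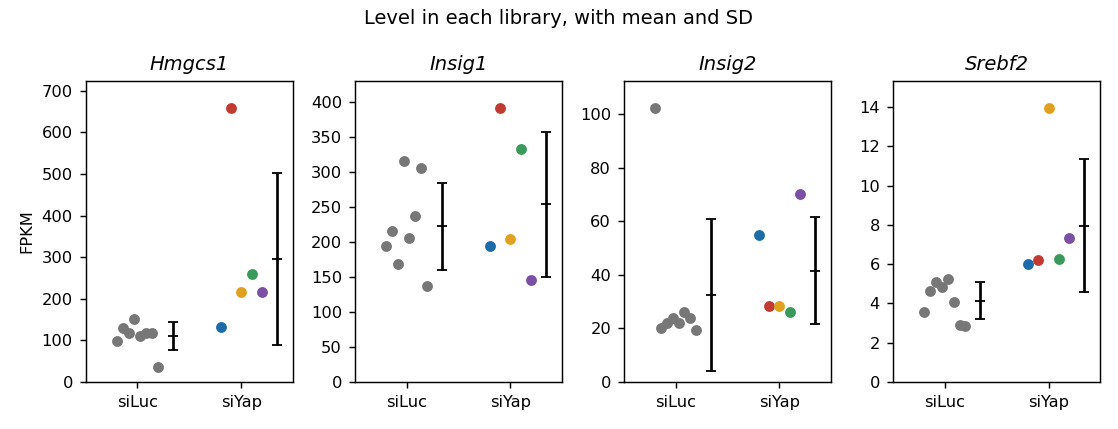
FPKM of Hmgcs1, Insig1, Insig2 and Srebf2 in each library, with siLuc in grey and siYap replicates 1 to 5 in blue, red, yellow, green and purple; bars are the group mean ± SD. All siYap points lie above the siLuc points for Srebf2, siLuc replicate 1 stands alone at 102 FPKM for Insig2, and the groups overlap for Insig1.

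Of the genes of sterol transport and esterification, Npc1 rose. Npc1 carries cholesterol across the membrane of late endosomes and lysosomes, taking it from the soluble protein Npc2. It was at 30.4, 35.8, 53.5, 51.3 and 29.9 FPKM in siYap, against a lowest of 14.9, a median of 22.0 and a highest of 30.6 in siLuc. siYap replicates 2, 3 and 4 lay above the siLuc range and replicates 1 and 5 just below its top, with a log2 fold change of 0.89 ± 0.20 (SE, adjusted p = 0.00473). Npc1 shares 8982 bases with its RefSeq neighbour Rmc1, listed in the files as 3110002H16Rik, which had a log2 fold change of 0.07 (adjusted p = 0.727). Npc2 was at 29.5 ± 4.10 FPKM (SD, n = 8) in siLuc and 27.8 ± 4.14 (SD, n = 5) in siYap, with a log2 fold change of -0.06 and an interval of -0.34 to 0.21. Stard4, a soluble carrier of cholesterol, had a log2 fold change of 0.16 (interval -0.19 to 0.51).

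The esterifying enzymes Soat1 and Soat2 store cholesterol as esters, and Soat2 is the form of hepatocytes. Soat2 was once named ACAT2 and is not the Acat2 above. Soat1 had a log2 fold change of 0.08 (interval -0.32 to 0.47) and was highest in siYap replicate 1, at 6.57 FPKM against 2.34 to 4.05 in all other libraries. Macrophages also use Soat1, and the macrophage markers summed to 784 to 1558 FPKM in siLuc and 415 to 676 in siYap; their part in the values of Soat1 and Npc2 was not tested. Soat2 was at 11.1, 12.7, 28.5, 26.6 and 22.0 FPKM in siYap, against 9.34 to 21.0 in siLuc, so that siYap replicates 1 and 2 were low and replicates 3 to 5 lay above the siLuc range. Its log2 fold change was 0.28 ± 0.23 (SE, adjusted p = 0.369), and 0.61 without siYap replicates 1 and 2 (adjusted p = 0.0442). Lpcat3, which puts polyunsaturated fatty acids into phospholipids, had a log2 fold change of -0.03 (interval -0.35 to 0.29).

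Genes around the pathway were read from 4 other lists with 58 genes tested, of which 10 rose and 4 fell (17.2% higher), near the 16.0% of all genes tested. In the list of SREBP processing and stability, 5 of 16 rose and 1 fell. Sec24a, a coat protein that takes Scap into transport vesicles, rose by 0.82 on the log2 scale (adjusted p = 0.000304), and Vcp, an ATPase that pulls proteins such as Insig1 out of the endoplasmic reticulum for degradation, by 0.47 (adjusted p = 0.00628). Mbtps1, the site-1 protease of SREBP2, named after its values were seen, rose by 0.53 (adjusted p = 0.00647). Rnf139, a ubiquitin ligase of the endoplasmic reticulum, fell by 0.65 (adjusted p = 0.00626).

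LXR is the nuclear receptor that senses surplus sterol, and among its own genes and efflux targets 1 of 8 rose and 1 fell. Abca1, which loads cholesterol on apolipoprotein A1, rose by 0.52 (adjusted p = 0.00957), and Abcg5, a sterol exporter to bile, fell by 0.70 (adjusted p = 0.0411). In the branches that use mevalonate products for purposes other than sterols, 1 of 14 rose and 2 fell. Icmt, which methylates prenylated proteins, rose by 0.68 (adjusted p = 0.000656), and Pdss2, which makes the side chain of ubiquinone, fell by 0.59 (adjusted p = 0.0158).

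Among sterol carriers, lysosomal genes and electron donors, 3 of 20 rose and none fell. Por, the reductase that supplies electrons to Cyp51, Sqle and many drug-metabolizing enzymes, was at 27.9 ± 8.61 FPKM (SD, n = 8) in siLuc and 167 ± 77.3 (SD, n = 5) in siYap, a log2 fold change of 2.59 (adjusted p = 9.56e-06). Cyb5b, a cytochrome b5 of the outer mitochondrial membrane, was at 52.3 ± 9.26 FPKM (SD, n = 8) and 166 ± 84.2 (SD, n = 5), a log2 fold change of 1.68 (adjusted p = 0.00027). Nceh1, a cholesterol ester hydrolase, rose by 0.85 (adjusted p = 0.00883).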

How the data were processed

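RNA-seq of 13 mouse liver tumour libraries was used. The submitters' processing notes name TopHat2 2.0.8, Cuffdiff 2.1.1, Cufflinks, Trimmomatic 0.30 and the build mm10. Annotation and strand handling were not given in the sources used here, so genes that overlap others are uncertain. These are Fdps, Fdft1, Npc1, Insig1, Mvd, Lss, Lpcat3, Tm7sf2, Acat2 and Srebf2. The raw fragments deposited by the authors are estimated counts without scaling, 97.57% to 98.01% of which were whole numbers per library (within 1e-06). The FPKM values were scaled by the authors with Cuffdiff. The genes Alb, Apob and Trf, marked as too deep to estimate per the file headers, were left out.

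Counts were rounded and tested for siYap against siLuc with edgeR 4.0.16 (R 4.3.3): TMM scaling, filterByExpr, robust quasi-likelihood test, no covariate, Benjamini-Hochberg adjustment over 15132 genes. The script was tested on simulated counts. Intervals of 95% are from the same fit. All 29 genes passed the filter, with 210 to 74883 fragments per library, so counting error was small beside the spread between libraries. Alternatives used DESeq2 1.42.0, limma 3.58.1 on log2(FPKM + 1), other filters and scalings, terms for code digit and sex, and each library left out. Leaving out pairs of siYap libraries, and replicates 1 to 5 without pairing, were added after seeing the data. Members and lists were chosen with earlier results of these data known. Every member is named; of each other list, up to 4 genes with the smallest p, of which 1 is not reported here. RefSeq's GRCm38.p6 tables gave coordinates and promoters.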

Additional observations from a re-analysis of the deposited data

Results flagged for a closer look

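For 6 of the 58 groups of libraries examined (29 genes in each treatment), the highest or lowest library was far from the others of its group by Dixon's criterion, which chance meets in about 1 of 20 groups. In siLuc, Hmgcs1 was at 34.8 FPKM in replicate 8, against 99.1 to 152 in the other libraries. Pmvk was at 87.7 FPKM in siLuc replicate 4, against 25.3 to 52.0 in the others, and Insig2 at 102.1 FPKM in siLuc replicate 1, against 19.4 to 26.0. Soat1 was at 2.34 FPKM in siLuc replicate 2, against 3.25 to 4.05. In siYap, Hmgcs1 was at 658 FPKM in replicate 2, against 132 to 260.5 in the others, and Srebf2 at 13.9 FPKM in replicate 3, against 6.02 to 7.34.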

How the results depend on the processing

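Across 27 alternatives per gene, 736 of 783 values of the 29 genes kept their side of the threshold. None of the 16 genes that rose changed sign. That count includes sign changes of genes near 0 that did not pass in either fit. Ebp, for example, had a log2 fold change of 0.04, and of -0.09 without siYap replicate 2. Of the 16 calls, 10 were kept without each library in turn and 9 in every alternative. Leaving out 1 library gave 11 to 16 of the 29 genes called, 13 to 15 of the 58 other pathway genes, and 3325 to 4633 of all genes, against 4668. An adjusted p under 0.01 left 9 of the 29 genes and 2362 of all genes. Without siYap replicates 1 and 3, 2984 genes were called, and Cyp51 passed (0.97, adjusted p = 0.0244). Libraries with the same replicate number did not deviate together (correlations -0.12, 0.127, 0.07, 0.109 and -0.071), so the numbers were not taken as pairs. With the number as a block over replicates 1 to 5, 12 of the 29 genes, 8 other pathway genes and 2298 of all genes were called. The same libraries without pairing gave 10 and 3067. Mvd, Fdft1, Hsd17b7 and Scap did not pass with the block (adjusted p = 0.137, 0.179, 0.0853 and 0.133), nor in the same libraries without it (0.121, 0.113, 0.0922 and 0.0851), where Acat2 and Pmvk also did not pass (0.0533 and 0.0998). Limma on log2(FPKM + 1) did not call Pmvk, Mvd, Fdft1 and Scap (0.0875, 0.103, 0.132 and 0.0549), and a term for sex did not call Mvd and Fdft1 (0.0518 and 0.0575).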
